A study of Mus musculus with 28 samples.

Results

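The genes described here encode the proteins of the cytosolic ribosome. They were chosen by name alone, as the rows of the table of expression values whose symbol was Rpl or Rps followed by a digit, or Rplp0, Rplp1, Rplp2 or Rpsa. Kinases with symbols starting Rps6k (10 rows) and rows marked as pseudogenes by -ps (2 rows) were left out. This gave 66 genes of 14219 rows, 37 named for the large subunit and 29 for the small subunit, and all 66 passed the filter on low values that 13591 rows passed. RNA came from pancreatic islets of 28 male mice of 10 to 12 weeks on a C57Bl6 and 129sv background, 1 library per mouse. All mice carried 2 floxed Klf6 alleles. Those labelled control had no Cre, and those labelled βKlf6KO also carried Ins1Cre/+, a Cre recombinase placed in 1 copy of the insulin gene Ins1 and active in β cells. Mice received saline (6 control and 6 βKlf6KO) or S961 (8 control and 8 βKlf6KO), a peptide antagonist of the receptor for insulin. Loss of Klf6 and presence of Cre with 1 altered Ins1 copy cannot be told apart in this design. RNA was extracted from 120 to 150 islets per mouse after a night in culture, with RNA quality numbers of 8.2 to 9.3. The spread behind every p-value is thus that between mice.

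A ribosome is built from ribosomal RNA and a set of proteins, each normally present as a single copy per subunit, apart from the acidic stalk proteins. Most of these proteins come from short, highly expressed genes whose RNA begins with a run of pyrimidines (C or T), the terminal oligopyrimidine tract, through which the mTOR pathway controls their translation. In β cells, which make large amounts of insulin, translation is a main task of the cell, and S961 raises the demand for insulin. Many ribosomal protein genes have near-identical processed copies in the genome, so counts of reads that fit several copies are uncertain.

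Klf6 itself was not lower under the βKlf6KO label, and the ratio of the insulin genes was lower under it only after S961, which bears on every direction below. On the log2 CPM scale, where CPM is the read count of a gene scaled to the total of its library, Klf6 after saline averaged 7.0 ± 0.42 (SD, n = 6) under the control label. Under the βKlf6KO label it averaged 6.97 ± 0.26 (n = 6), a difference of -0.03 (limma adjusted p = 0.974). After S961 the averages were 6.94 ± 0.72 (n = 8) and 7.22 ± 0.51 (n = 8), a difference of 0.28 (limma adjusted p = 0.517). The log2 ratio of Ins1 to Ins2, which an altered Ins1 copy should lower, averaged -1.63 ± 0.77 in control and -1.29 ± 0.27 in βKlf6KO libraries of the saline mice. In the S961 mice it averaged -1.31 ± 0.69 and -1.94 ± 0.48. A library held 28868638 to 45001633 reads in genes of the table. The first principal component of the 13525 tested genes outside the family held 54.5% of the variance between libraries. Its gene loadings followed transcript GC content (Spearman rho -0.85 across 13518 genes, which are not independent and share the same libraries). Control S961 replicate 2, control saline replicate 4 and control S961 replicate 8 had the highest scores, 138.6, 97.7 and 79.2, against at most 47.6 in the other libraries. These 3 libraries stood apart in the ribosomal protein genes too, and the main values below that shift without them are given in both ways.

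Promoter sequence is shown first, as a feature that was not used to choose the genes. The windows are from RefSeq (GRCm38.p6), which held 53 of the 66 genes. Each line gives 40 bases before the annotated start of transcription and 20 bases from it, on the coding strand. Capitals mark the longest run of only C or T, and in Rps27l the first of equally long runs. This run ends before the annotated start in Rpl5, Rpl4, Rps15a and Rps27l. It crosses the start in Rpl28 and Rpl35 and follows it in Rpl22l1. A run that ends before the annotated start is not part of the RNA as annotated. Rpl5, Rpl4 and Rps15a are shown for their difference between labelled genotypes, Rpl28 and Rpl35 for their large swings between libraries, and Rpl22l1 and Rps27l as variant copies of other ribosomal protein genes.
Rpl5: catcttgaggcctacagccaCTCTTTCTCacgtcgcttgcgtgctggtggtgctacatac
Rpl4: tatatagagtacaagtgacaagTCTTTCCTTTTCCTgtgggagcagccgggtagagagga
Rps15a: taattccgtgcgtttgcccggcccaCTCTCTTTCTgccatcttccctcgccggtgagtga
Rpl28: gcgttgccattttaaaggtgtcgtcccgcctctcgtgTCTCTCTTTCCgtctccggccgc
Rpl35: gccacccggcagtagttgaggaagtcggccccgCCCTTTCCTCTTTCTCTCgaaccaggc
Rpl22l1: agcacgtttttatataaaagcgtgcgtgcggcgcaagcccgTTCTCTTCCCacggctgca
Rps27l: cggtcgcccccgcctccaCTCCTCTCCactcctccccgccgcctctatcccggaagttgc

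In GRCm38 these windows are chr5:107900488-107900547 (Rpl5, plus strand), chr9:64173347-64173406 (Rpl4, plus), chr7:118116128-118116187 (Rps15a, minus) and chr7:4792925-4792984 (Rpl28, plus). The others are chr2:39005112-39005171 (Rpl35, minus), chr3:28805468-28805527 (Rpl22l1, plus) and chr9:66946046-66946105 (Rps27l, plus). The run of pyrimidines was 18 bases long in Rpl35, 14 in Rpl4 and 9 in Rpl5. A run of at least 8 such bases within 50 bases of the annotated start was found in 43 of 53 ribosomal protein genes (81.1%) and in 35.7% of all 27025 windows of the reference. Within 10 bases of the annotated start, the shares were 30.2% and 7.35%. The letters CCGGAA, the core of sites bound by ETS factors such as GABP, were found on either strand of the window from 250 bases before to 50 after the start in 54.7% of the genes and 15.2% of all windows. GGGCGG, the core of Sp1 and Klf sites, was found in 62.3% and 35.9%, and ATGGCG, part of YY1 sites and of many translation starts, in 28.3% and 9.24%. At least 1 of the 3 was found in 88.7% and 45.3%. Matches of different motifs can share letters and were counted separately, and a match is a description, not a bound site. The genes were spread over the genome, with 13 of 66 (19.7%) on chromosome 7, which held 7.47% of all tested genes.

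The level of a gene is compared between genes per kilobase of coding sequence. Rpl41, which encodes the smallest ribosomal protein (75 bases of coding sequence), had the highest mean level on this scale over 28 libraries, 3472 CPM per kb. Its rank rests on division by this short length. Before division its mean was 260 CPM, against 1064 for Rpl4 and 862 for Rps4x. Rpl9 followed at 1302, Rpl39 at 1188, Rps27 at 1164 and Rps4x at 1092 CPM per kb. At the low end stood Rpl36 at 43.2, Rpl13a at 31.8, Rps19bp1 at 14.2 and Rps27rt at 3.58 CPM per kb. Rps19bp1 meets the naming rule but encodes a protein that binds Rps19 and is no ribosomal subunit, and Rps27rt is a retrotransposed copy of Rps27. Division by coding length alone, read counting among near-identical copies and the GC dependence above touch these levels, and their part was not tested.

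Together the 66 genes took a larger mean share of reads under the βKlf6KO label than under the control label. After saline the summed share was 0.95% at the lowest, 1.46% at the median and 1.55% at the highest in control libraries. In βKlf6KO libraries it was 1.60%, 1.78% and 2.18%, and the groups did not overlap. After S961 the control libraries ran from 0.74% through a median of 1.39% to 1.56%, and the βKlf6KO libraries from 1.23% through 1.69% to 2.16%, with overlap. βKlf6KO S961 replicate 8 had the highest value of all 28 libraries for 42 of the 66 genes. The group means were 1.37 ± 0.23% (SD, n = 6) and 1.81 ± 0.21% (n = 6) after saline, and 1.30 ± 0.27% (n = 8) and 1.72 ± 0.32% (n = 8) after S961. No test is given for this sum, since the genes were chosen with earlier results known. Without the 3 libraries that stood apart, the control means were 1.46 ± 0.10% (n = 5) and 1.43 ± 0.12% (n = 6). The lowest shares of all were in these 3 libraries, 0.74%, 0.95% and 1.08%. They also had the lowest share of insulin reads, 0.79%, 1.47% and 1.59%, against 2.60% to 17.4% in the other 25. In bulk islets, fewer cells of a type and less RNA per cell cannot be told apart.

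**Figure D1:**
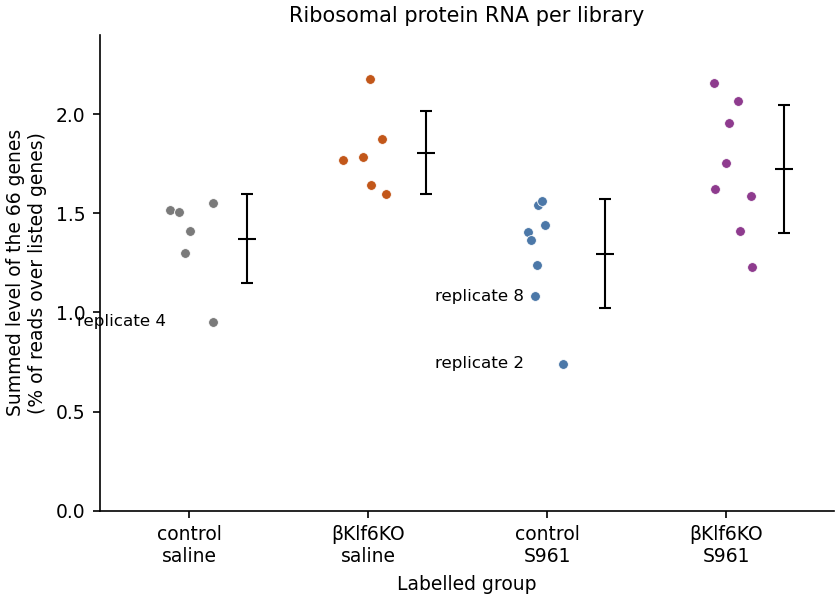
Summed level of the 66 ribosomal protein genes as a percentage of reads over listed genes (vertical axis) in each library (points), by labelled group (horizontal axis), with the mean and SD beside the points. βKlf6KO saline libraries lie at 1.60% or more and control saline libraries at 1.55% or less, and the 3 control libraries that stood apart lie between 0.74% and 1.08%.

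After saline, 4 of the 66 genes were called higher in libraries labelled βKlf6KO and none lower, by limma at a Benjamini-Hochberg adjusted p below 0.05 over all 13591 genes. Of all genes, 2.09% were called higher and 0.692% lower. Although few genes passed the test, 64 of 66 differences were positive. Their median was 0.39 on the log2 scale, against 0.00 over all genes, of which 49.9% were positive. The genes of the family share the same libraries and are not independent, so this count of signs is a description only. At an unadjusted p below 0.05 stood 21 genes of the family, all higher, and 14.4% of all genes in either direction.

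Rpl5 encodes a large subunit protein that travels to the ribosome with 5S ribosomal RNA and Rpl11, and that can bind the p53 regulator Mdm2. Its level was 8.92, 9.13 and 9.34 log2 CPM (lowest, median and highest) in control saline libraries and 9.22, 9.55 and 9.62 in βKlf6KO saline libraries. The groups overlapped through 1 βKlf6KO library, replicate 2. Rpl5 rose 1.32-fold, a log2 difference of 0.40 with a standard error of 0.11 (limma adjusted p = 0.0470), and 6 of 6 βKlf6KO libraries were above the control mean.

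Rpl9, a protein of the large subunit, stood at 9.26, 9.34 and 9.50 log2 CPM in control saline libraries and at 9.60, 9.68 and 10.20 in βKlf6KO saline libraries, with no overlap. It rose 1.38-fold (limma adjusted p = 0.0416). Rpl35a, another large subunit protein and one of the genes mutated in Diamond-Blackfan anemia, stood at 7.02, 7.20 and 7.48 log2 CPM in control saline libraries. In βKlf6KO saline libraries it stood at 7.46, 7.59 and 7.81, overlapping by a narrow margin, and rose 1.30-fold (limma adjusted p = 0.0372).

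Groups did not overlap after saline for 9 of the 66 genes, all higher in βKlf6KO libraries, among them Rpl13a, Rpl31, Rpl4, Rpl9, Rps15a, Rps27, Rps3a1 and Rps7. Over all genes, 2.46% did not overlap in that direction and 1.64% in the other. The 4 calls lay close to the threshold, with a smallest adjusted p of 0.0372. None was left with a filter at 5 CPM, or without any single one of control saline replicates 1, 3, 5 and 6 or βKlf6KO saline replicates 5 and 6. Only 1 was left without control saline replicate 2 or βKlf6KO saline replicate 1, 3 or 4, and 2 without control S961 replicate 7, while 7 were called without control S961 replicate 2. There were 24 calls with library weights and 26 when the first component was a covariate, none of them lower. The shares of all genes called that are given above belong to the fit with 4 calls.

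After S961, 10 of the 66 genes were called higher in libraries labelled βKlf6KO and none lower, against 2.35% and 2.01% of all genes. Differences were positive for 65 of 66, with a median of 0.47 on the log2 scale against 0.02 over all genes. This count too describes genes that are not independent. At an unadjusted p below 0.05 stood 31 genes of the family, all higher, and 22.9% of all genes in either direction. The genotype comparisons after saline and after S961 share no library in their means, but the spread behind their p-values was estimated over all 28 libraries. Of the genes called, 2 were called in both, Rpl5 among them, 12 in either, and 64 were positive in both. Since the positive sign of the family was already known when the genes were chosen, the second comparison is no independent evidence of it.

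Rpl36a, a protein of the large subunit encoded on the X chromosome, had the smallest p. Its level was 6.41, 6.95 and 7.19 log2 CPM in control S961 libraries and 6.96, 7.27 and 7.58 in βKlf6KO S961 libraries. The groups overlapped, but 8 of 8 βKlf6KO libraries were above the control mean, and Rpl36a rose 1.33-fold (log2 difference 0.41, standard error 0.10, limma adjusted p = 0.0198). Rpl5 stood at 8.65, 9.16 and 9.48 log2 CPM in control S961 libraries and at 9.30, 9.49 and 9.77 in βKlf6KO S961 libraries, a rise of 1.31-fold (limma adjusted p = 0.0280). It was above the control mean in 8 of 8 βKlf6KO libraries, and its groups overlapped. Rpl9, called after saline, missed the threshold after S961 at a difference of 0.35 (limma adjusted p = 0.0604).

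A further 7 of the genes called after S961 rose between 1.22-fold and 1.41-fold. Rps20, Rps15a, Rps3a1, Rps7 and Rps4x belong to the small subunit, and Rpl7 and Rpl4 to the large subunit, where Rpl4 reaches into the tunnel through which the new protein leaves. Rps3a1 changed least, 1.22-fold (limma adjusted p = 0.0346), and Rps7 most, 1.41-fold (limma adjusted p = 0.0460). No gene of the family had groups without overlap after S961, and over all genes 0.103% were higher and 0.280% lower without overlap. The call was lost for all 10 genes when only the S961 groups were fitted or without βKlf6KO S961 replicate 6. Only Rpl36a kept it without βKlf6KO S961 replicate 7 or 8. Between 2 and 3 calls were left without control S961 replicate 2, 3 or 5, and 6 without βKlf6KO S961 replicate 5, βKlf6KO saline replicate 3, 4 or 5, or control saline replicate 1, 2 or 6. Calls rose to 18 without βKlf6KO S961 replicate 4, to 27 with a correction for coding GC content and to 36 when the first component was a covariate. The shares of all genes called that are given above belong to the fit with 10 calls.

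**Figure D2:**
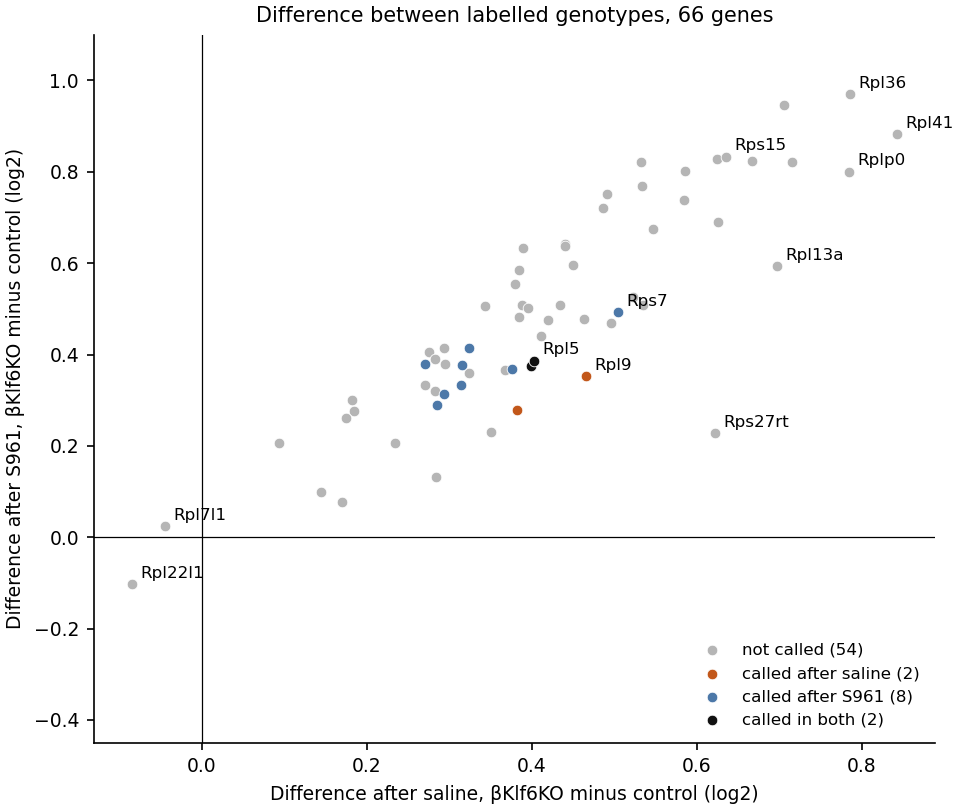
Log2 difference between libraries labelled βKlf6KO and control after saline (horizontal axis) and after S961 (vertical axis) for each of the 66 genes (points), coloured by the comparison in which limma called the gene higher. Called genes lie between 0.27 and 0.51 on both axes, while genes with larger differences, such as Rpl36 and Rpl41, were not called, and Rpl22l1 lies below 0 on both axes.

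The genes called were not those with the largest differences, as the plot of both genotype differences shows. Family members differed in how far they swung between libraries, with SDs over 28 libraries from 0.19 log2 CPM in Rpl7l1 to 1.96 in Rpl36. The SD was below 0.3 for 19 genes, which included all 4 genes called after saline and 9 of the 10 called after S961. Their median difference was 0.29 after saline and 0.32 after S961, with median standard errors of 0.11 and 0.10. For 18 genes the SD was at least 0.8. Their median difference was larger, 0.59 and 0.80, with median standard errors of 0.62 and 0.53, and none was called. Without the 3 libraries that stood apart, the medians of these 18 genes were 0.14 and 0.09, while those of the 19 steady genes were 0.31 and 0.30.

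Rplp0 encodes the base of the ribosomal stalk, which recruits elongation factors. It stood at 6.42, 8.91 and 9.26 log2 CPM in control saline libraries and at 8.19, 9.45 and 10.07 in βKlf6KO saline libraries. After S961 it stood at 5.48, 8.40 and 9.65 in control libraries and at 7.38, 9.16 and 9.86 in βKlf6KO libraries. The groups overlapped over most of their range, and the differences of 0.78 and 0.80 on the log2 scale did not pass the test (limma adjusted p = 0.624 and 0.354). They were 0.37 without control saline replicate 4 and 0.42 without control S961 replicate 2, and 0.14 after S961 without all 3 libraries. Its stalk partners Rplp1 and Rplp2 gave 0.58 and 0.40 after saline and 0.74 and 0.50 after S961, none past the threshold. Without control saline replicate 4, the saline values were 0.11 and 0.064.

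Rpl36, a small protein of the large subunit, was the extreme case. It stood at -1.21, 3.71 and 4.64 log2 CPM in control saline libraries and at 1.98, 3.88 and 5.28 in βKlf6KO saline libraries. After S961 it stood at -2.19, 2.42 and 5.22 in control libraries and at 0.15, 3.54 and 4.73 in βKlf6KO libraries. The lowest value of each control group came from a library that stood apart. The difference of 0.79 after saline became -0.04 without control saline replicate 4, and the difference of 0.97 after S961 became -0.17 without the 3 libraries. Rplp1 and Rplp2 also turned negative after S961 without these libraries, at -0.03 and -0.10.

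**Figure D3:**
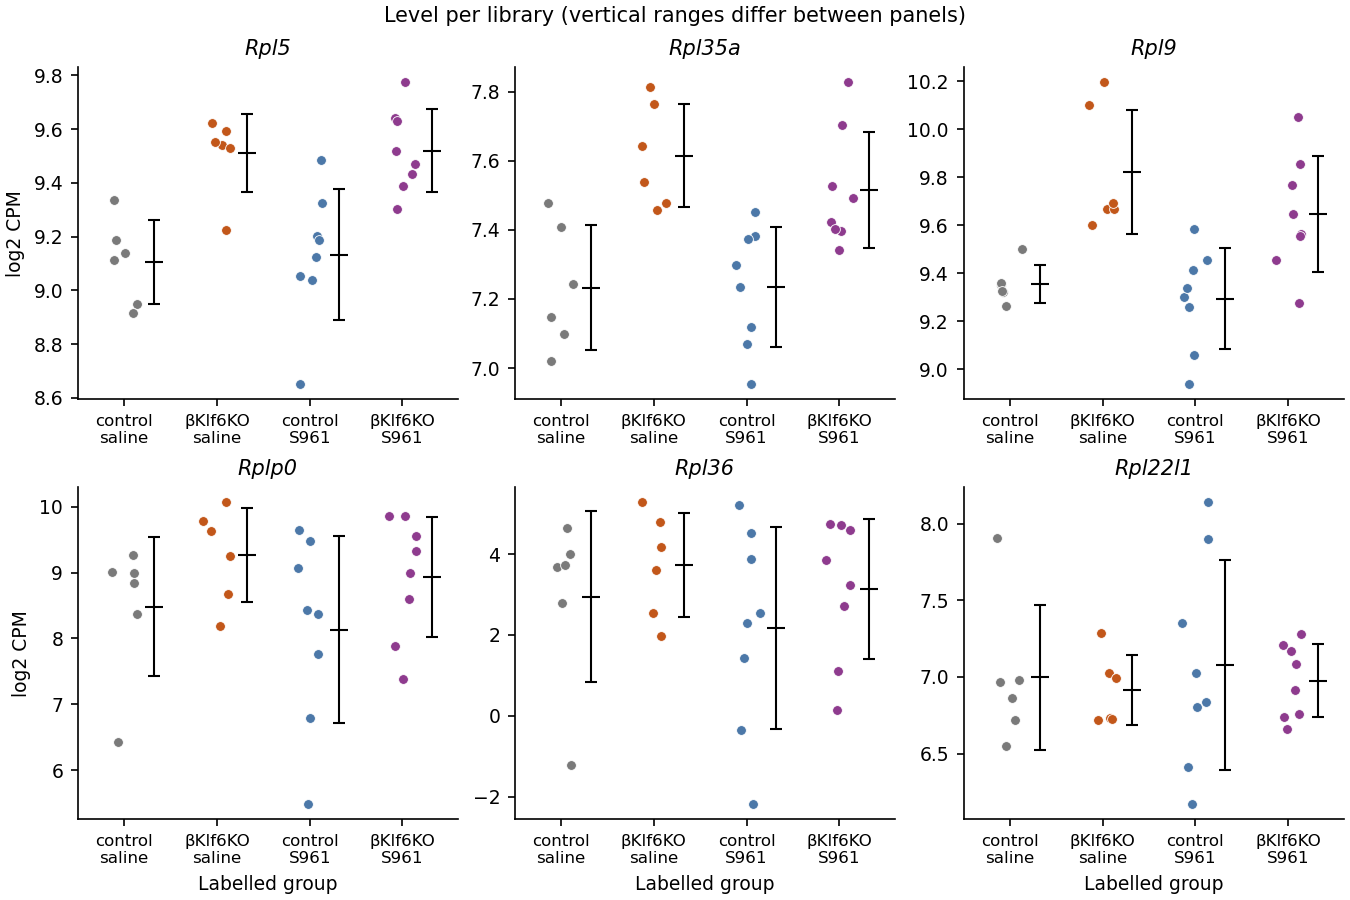
Log2 CPM (vertical axes, with different ranges) in each library (points) by labelled group, with mean and SD, for 3 genes called higher in at least 1 genotype comparison (Rpl5, Rpl35a and Rpl9) and 3 not called (Rplp0, Rpl36 and Rpl22l1). In the top panels all βKlf6KO saline libraries lie above the control saline mean, while in Rplp0 and Rpl36 the lowest control libraries reach 5.48 and -2.19, and in Rpl22l1 the same libraries are the highest.

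The spread of a gene went with the GC content of its coding sequence. Across the 65 members with a coding sequence in GENCODE M21, Spearman's rho between GC content and SD was 0.75, against 0.23 across 12723 tested genes. These are descriptions across genes that share libraries. The 12 genes called in either comparison had 45.9% to 50.6% GC, a range with an upper end that only 20 of the 65 genes did not exceed. The 45 genes above it, which include Rplp0 and Rpl36, held no call. Median coding GC content was 53.5% in the family and 52.8% over all genes, and median coding length 438 and 1398 bases.

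Control S961 replicate 2 had the lowest value of all 28 libraries for 50 of the 66 genes and the highest for 2, Rpl22l1 and Rpl27a. Rpl22l1 has the lowest coding GC content of the family, 39.9%, while that of Rpl27a, 53.6%, is near the family median. In the 3 libraries that stood apart the level of Rpl22l1 was 8.14, 7.91 and 7.90 log2 CPM, above every other library. There Rpl39, at 45.1% GC, reached 8.05, 8.09 and 8.04, and Rpl27a 6.42, 6.34 and 6.24. Without the 3 libraries, 8 genes of the family were called higher after saline and 11 after S961, with median differences of 0.23 in both. The share of all genes called in that fit is not reported here, so these counts are no result about the family. All 4 genes called after saline and 9 of the 10 called after S961 remained.

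**Figure D4:**
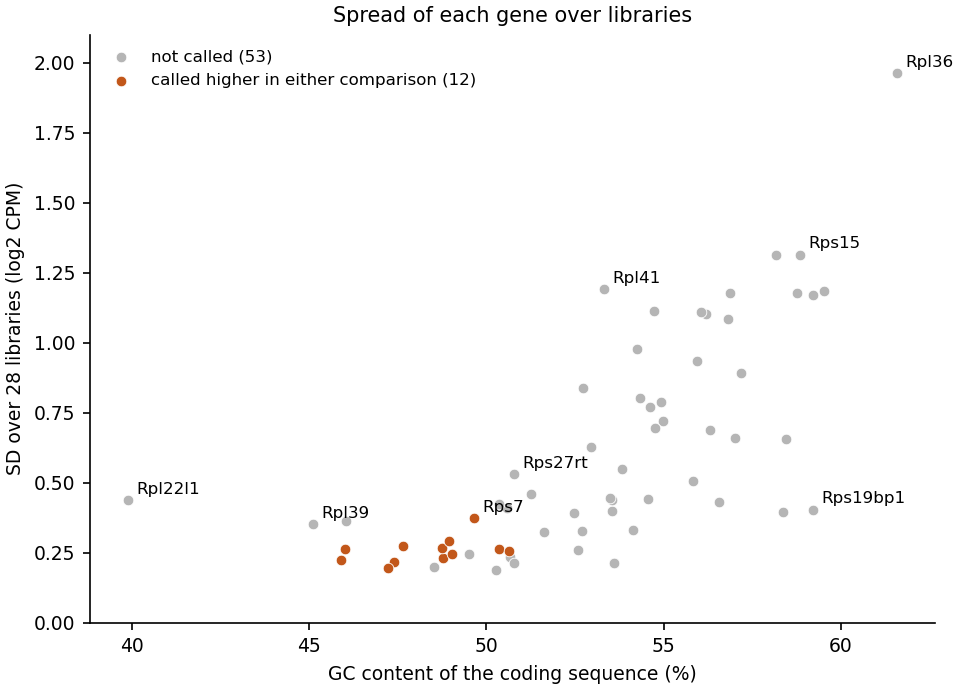
SD over 28 libraries in log2 CPM (vertical axis) against GC content of the coding sequence (horizontal axis) for 65 ribosomal protein genes (points), with the 12 genes called higher in either genotype comparison in orange. Called genes lie at 45.9% to 50.6% GC with an SD of 0.19 to 0.37, and genes with an SD of at least 0.8 lie at 52.7% GC or more.

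**Figure D5:**
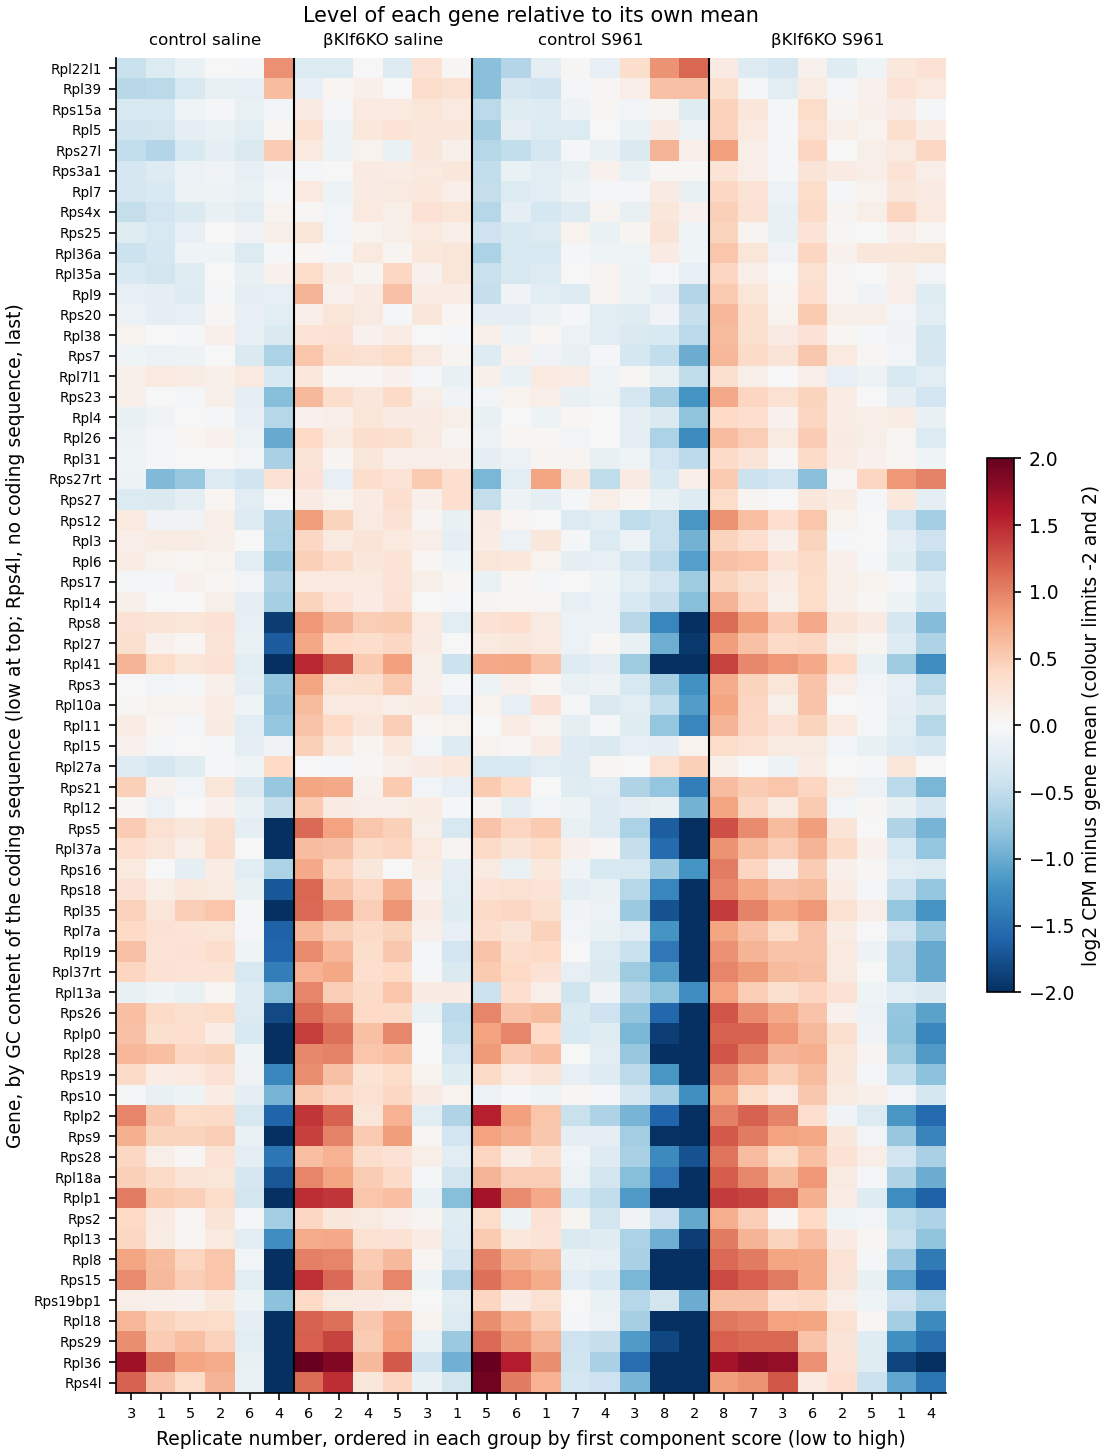
Level of 65 of the 66 genes (rows, ordered by coding GC content, lowest at the top) in each of 28 libraries (columns, by labelled group and then by first component score), as log2 CPM minus the mean of the gene, with colours limited at -2 and 2. The columns of control saline replicate 4 and control S961 replicates 2 and 8 are blue for most genes of the lower rows and red for Rpl22l1 and Rpl39 at the top.

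Libraries were read on sequencing lanes 4 to 7, and each lane held all 4 groups. The median difference of the 66 genes after saline was -0.21 in lane 4, 0.07 in lane 5, 0.63 in lane 6 and 0.65 in lane 7. After S961 it was -0.32, 0.59, 0.52 and 0.96, so lane 4 went the other way in both comparisons. In lane 4 the βKlf6KO libraries had the higher first component scores, 14.0 against -21.6 and -14.0 after saline and 33.1 and 47.6 against -24.9 and 7.36 after S961. Lane 4 held none of the control libraries that stood apart. Control S961 replicate 2 (score 138.6) was in lane 5, control saline replicate 4 (97.7) in lane 6 and control S961 replicate 8 (79.2) in lane 7. The medians of 0.63 after saline and of 0.59 and 0.96 after S961 thus include such a library. Those of 0.07 and 0.65 after saline and of 0.52 after S961 do not. First component scores differed in these lanes too. In lane 7 after saline they were -19.0 and -45.9 in βKlf6KO libraries against 10.7 in control. In lane 6 after S961 they were -34.6 and -27.6 against 32.4 and -29.3. In lane 5 after saline they were -39.3 and 0.88 against -31.1. The part of these scores in the medians was not tested. The 4 genes called after saline were positive in each lane, and of the 10 called after S961, 9 were positive in lane 4 and 10 in each other lane, but these genes were called on the same libraries. Rpl5 differed by 0.47, 0.47, 0.29 and 0.50 in lanes 4 to 7 after saline and by 0.37, 0.49, 0.31 and 0.38 after S961. Rps7 varied most, with -0.14, 0.73, 0.53 and 0.85 after S961. Rps20 gave 0.01, 0.45, 0.50 and 0.55, and Rpl4 gave 0.05, 0.62, 0.34 and 0.50. With 1 or 2 libraries per group, single lanes give no test.

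Under a covariate for the first component, the family medians were 0.17 after saline and 0.21 after S961.

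By role, the 5S particle partners Rpl5 and Rpl11 had similar differences over all 28 libraries but different spreads. Without the 3 libraries that stood apart, Rpl5 differed by 0.45 after saline and 0.46 after S961, and Rpl11 by only 0.28 and 0.19. Over all 28 libraries Rpl11 differed by 0.41 after saline and 0.44 after S961, with standard errors of 0.22 and 0.19 (limma adjusted p = 0.420 and 0.168). Rps3, a small subunit protein at the entry of the mRNA channel that is also linked to DNA repair, differed by 0.50 and 0.47 (limma adjusted p = 0.265 and 0.133). Without the 3 libraries Rps3 differed by 0.37 and 0.26. Rpl13a, also known for silencing translation of inflammatory mRNAs outside the ribosome, stood at 3.33, 4.05 and 4.22 log2 CPM in control saline libraries and 4.36, 4.63 and 5.17 in βKlf6KO saline libraries. These groups did not overlap, yet its difference of 0.70 did not pass the test (limma adjusted p = 0.0935), nor did 0.59 after S961 (0.0701). Without the 3 libraries Rpl13a differed by 0.57 and 0.38. Rps19, the gene most often mutated in Diamond-Blackfan anemia, differed by 0.39 and 0.63 with overlapping groups (limma adjusted p = 0.716 and 0.226), and by 0.14 and 0.23 without the 3 libraries. Rpl3, near the catalytic center of the large subunit, differed by 0.19 and 0.28 (limma adjusted p = 0.722 and 0.280), and by 0.062 and 0.11 without the 3 libraries.

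The genes whose level moved most nearly with the family were Rpl11, Rps23, Rpl27, Rps3 and Rpl6. Their deviation from the family median in each library had an SD of 0.14, 0.14, 0.15, 0.15 and 0.16 log2 CPM within groups. Those farthest from the family were Rpl36, Rpl22l1, Rplp1, Rps27rt and Rps15, with SDs of 1.51, 0.92, 0.85, 0.85 and 0.82.

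A further 16 protein-coding rows are ribosomal protein genes by their Ensembl ID in GENCODE M21 but carry another symbol in the table, so the naming rule does not reach them. The row named Rpl37rt is, by its ID, Rpl37. Of the 16, 1 was called higher after saline and 4 after S961, and the median differences were 0.34 and 0.36, with all 16 positive in both. Over single libraries left out, the counts ran from 0 to 2 and from 2 to 6. None was called after S961 with only the groups compared or after saline with a filter at 5 CPM, and 13 were called in each when the first component was a covariate. Rpl17, of the large subunit, stood at 8.56, 8.64 and 8.79 log2 CPM in control saline libraries and at 8.98, 9.07 and 9.37 in βKlf6KO saline libraries, without overlap, and rose by 0.46 on the log2 scale (limma adjusted p = 0.0359). After S961 it rose by 0.50 (limma adjusted p = 0.0120). Rpl22, which can bind RNA outside the ribosome, stood at 6.20, 6.80 and 6.94 log2 CPM in control S961 libraries and at 6.98, 7.11 and 7.47 in βKlf6KO S961 libraries. These groups did not overlap, and Rpl22 rose 1.37-fold (limma adjusted p = 0.00859). Rpl21 and Rpl23 were the other 2 genes called after S961. Rps6, the substrate of S6 kinases downstream of mTOR, differed by 0.39 and 0.46 (limma adjusted p = 0.221 and 0.0530). The ubiquitin fusion gene Rps27a differed by 0.15 and 0.18, Rpsa, also a laminin receptor, by 0.35 and 0.39, and Rpl10 by 0.36 and 0.27, none past the threshold.

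Variant copies did not all move with their namesakes. Rpl22l1, which can take the place of Rpl22, stood at 6.55, 6.92 and 7.91 log2 CPM in control saline libraries and at 6.72, 6.86 and 7.29 in βKlf6KO saline libraries. After S961 it stood at 6.17, 6.93 and 8.14 and at 6.66, 7.0 and 7.28. The highest value of each control group came from a library that stood apart, and the differences of -0.08 and -0.10 did not pass the test (limma adjusted p = 0.926 and 0.786). Both were positive without those 3 libraries, at 0.10 and 0.21. The log2 ratio of Rpl22l1 to Rpl22 ran from -0.49 to 1.94 over the 28 libraries. Rpl7l1, a paralog of Rpl7 that acts in ribosome assembly, differed by -0.04 and 0.02 (limma adjusted p = 0.915 and 0.889), and its log2 ratio to Rpl7 stayed between -3.80 and -2.69. Rps27l, a paralog of Rps27 induced by p53, differed by 0.28 and 0.39 (limma adjusted p = 0.545 and 0.145), and its log2 ratio to Rps27 ran from -1.86 to -0.57. Without the 3 libraries Rps27l differed by 0.43 and 0.57 (limma adjusted p = 0.0509 and 0.00733) and was called higher after S961.

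The retrotransposed copy Rps27rt and its parent Rps27 share sequence from the annotated start onward. How reads were divided between such copies was not tested. Capitals mark the longest stretch common to both windows, 19 bases.
Rps27: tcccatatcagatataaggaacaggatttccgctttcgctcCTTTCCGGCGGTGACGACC
Rps27rt: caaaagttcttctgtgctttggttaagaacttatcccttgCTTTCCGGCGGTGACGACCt

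The windows are chr3:90213629-90213688 (Rps27, minus strand) and chr9:114982720-114982779 (Rps27rt, minus strand). Rps27 stood at 7.90, 7.98 and 8.22 log2 CPM in control saline libraries and at 8.24, 8.35 and 8.52 in βKlf6KO saline libraries, without overlap, and just missed the threshold at a difference of 0.35 (limma adjusted p = 0.0516). Rps27rt stood at a mean of -0.60 ± 0.43 and 0.03 ± 0.23 log2 CPM (SD, n = 6) after saline, a difference of 0.62 (limma adjusted p = 0.332). Rps4l, annotated as a processed pseudogene, differed by 0.46 and 0.48 (limma adjusted p = 0.847 and 0.639), and by -0.08 and -0.26 without the 3 libraries that stood apart. Its parent Rps4x differed by 0.38 after saline. Rps19bp1 differed by 0.17 and 0.26 (limma adjusted p = 0.826 and 0.443), and by 0.02 and 0.08 without the 3 libraries.

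S961 itself was followed by no call in the family. Against saline, 0 of 66 genes were called in control and 0 in βKlf6KO libraries by limma, as were 0.0% of all genes in each comparison. No family member had an unadjusted p below 0.05, nor did any have groups without overlap. Over all genes, 0.765% and 3.04% had such a p. Groups did not overlap for 0.00736% of all genes (higher) and 0.0% (lower) in control libraries, and for 0.0809% and 0.191% in βKlf6KO libraries. Fits with voom gave 0 as well. The median difference was -0.14 in control libraries, with 52 of 66 negative, and -0.10 in βKlf6KO libraries, with 54 negative. The smallest p in control libraries belonged to Rpl7l1 (-0.12), followed by Rps19 (-0.36), Rpl38 (-0.12), Rpl3 (-0.17) and Rps27rt (0.28). In βKlf6KO libraries it belonged to Rpl9 (-0.18), followed by Rpl36a (0.12), Rpl13a (-0.24), Rps27l (0.19) and Rpl35a (-0.10). These comparisons share their groups with the genotype comparisons and are no separate evidence for them. The responses to S961 of the labelled genotypes did not differ by test either, with 0 of 66 genes called and 0.0% of all genes, a median difference of responses of 0.08 and a range from -0.39 in Rps27rt to 0.29.

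Other genes of translation were read beside the family. Of 8 elongation factors, Eef1b2, a subunit of the factor that reloads eEF1A, was called higher after saline (0.52 on the log2 scale, limma adjusted p = 0.00284) and after S961 (0.44, 0.00859). No other elongation factor was called, and 3 of 8 had an unadjusted p below 0.05 in each comparison, beside 14.4% and 22.9% of all genes. The differences of all 8 were positive in both, with medians of 0.38 and 0.43. Of 33 initiation factors, Eif3h was called higher after saline (0.45, limma adjusted p = 0.0372). After S961, Eif4b, Eif3f and Eif3h were called higher, at 0.33, 0.50 and 0.39, and the medians of the list were 0.01 and 0.09. Eif3h and Eif3f are subunits of the factor that brings the small subunit to the mRNA, and Eif4b assists the RNA helicase of initiation.

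Genes that build the ribosome did not show calls. Over all genes, 2.09% were called higher and 0.692% lower after saline, and 2.35% and 2.01% after S961. At an unadjusted p below 0.05 stood 14.4% and 22.9% of all genes, in either direction. Beside these shares, the few calls in the lists below describe single genes and not the lists. Of 43 ribosome biogenesis genes, such as those for nucleolar proteins and RNA polymerase I, 0 were called in either genotype comparison by limma, with medians of -0.11 and 0.01. At an unadjusted p below 0.05 stood 2 lower genes after saline and 4 higher genes after S961. Of 76 mitochondrial ribosomal protein genes, 0 were called after saline and 1, Mrpl9, after S961 (0.17, limma adjusted p = 0.0477), with medians of 0.09 and 0.12, and 2 stood higher at an unadjusted p below 0.05 after saline, 6 higher and 2 lower after S961. Of 24 regulators of ribosome production, Ddit4, an inhibitor of mTOR signaling, was called higher after S961 (0.69, limma adjusted p = 0.0308). None was called after saline, where 1 stood higher and 3 lower at an unadjusted p below 0.05, against 4 and 2 after S961. None of 6 other ribosome-associated genes was called by limma, and 3 of them stood higher at an unadjusted p below 0.05 after S961, where 22.9% of all genes had such a p.

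Markers of proliferation and of some other cell types moved with the genotype labels as well. None of the α cell (5), δ cell (2), PP cell (1), endothelial (5) or glial (1) genes tested was called in either comparison. The summed level of 11 proliferation genes was 7.50 to 36.5 CPM in control saline and 95.8 to 156.0 CPM in βKlf6KO saline libraries, with 11 of 11 called higher, and 8.22 to 116.0 and 46.1 to 81.7 CPM after S961, with 5 of 11 called higher. Of 11 macrophage genes, 4 were called higher after saline (103.1 to 141.3 CPM in control, 133.8 to 678.3 CPM in βKlf6KO libraries) and 1 after S961 (106.6 to 185.4 and 129.9 to 391.4 CPM). Of 8 fibroblast or stellate genes, 2 and 4 were called higher, with summed levels of 17.8 to 41.4 and 27.8 to 158.8 CPM after saline and 19.5 to 64.5 and 43.5 to 122.1 CPM after S961. Lymphocyte genes, of which 5 were at 0 reads in some libraries, summed to 2.20 to 8.35 and 2.59 to 64.4 CPM after saline, with 2 of 5 tested called higher. After S961 they summed to 1.50 to 12.2 and 1.43 to 25.8 CPM, with none of 5 called. Of 6 ductal genes, Spp1 was called higher after S961, where they summed to 357.2 to 722.2 CPM in control and 697.0 to 1424 CPM in βKlf6KO libraries, and none after saline (394.8 to 757.5 and 655.9 to 879.6 CPM). None of 9 acinar genes was called, with a median difference of 0.95 after S961 and 1 βKlf6KO library at 97997 CPM against at most 36683 CPM in control libraries. Of 9 β cell genes, Nkx6-1 and Slc2a2 were called lower after saline, joined by Pdx1 after S961. The β cell genes summed to 57328 to 175747 CPM in control saline, 99346 to 181323 in βKlf6KO saline, 57220 to 225020 in control S961 and 69832 to 155413 CPM in βKlf6KO S961 libraries. The part of these markers in the differences of the ribosomal protein genes was not tested.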

How the data were processed

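The deposited table gave log2 CPM per gene and library, made by the authors with STAR 2.5.3a, HTSeq 0.9.1 and edgeR on GRCm38, per the submitters' processing notes. Strand settings and the handling of reads that fit several places are not given in the sources used here. The deposited log2 values fit a count with 0.5 added, divided by an adjusted library total, and whole reads were recovered from 100% of values within 0.05. At 28868638 to 45001633 reads per library, a count of 0 allows at most 3 reads, or 0.0685 to 0.105 CPM, which covers counting error only.

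Rows reaching 1 CPM in 6 or more libraries entered the fit (13591, with 628 left out). A single model of the 4 group means over the 28 libraries was fitted in R 4.3.3 by limma 3.58.1, its variances moderated along a trend in level, with two-sided tests of 5 contrasts: genotype within each treatment, S961 within each genotype, and the difference of responses. The threshold for a call was 0.05 after Benjamini-Hochberg adjustment across every tested gene. The scripts were tested on simulated data. Coordinates and coding sequences are from GENCODE M21 (14210 of 14219 IDs found), and promoters from RefSeq. Summaries were made with Python 3.11.15 and pandas 2.3.3.

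The family and all gene lists were chosen with earlier results of these data known. Genes named are variant copies and their namesakes, members by role, up to 8 called members of smallest p per comparison (5 members where none was called), and the 5 members nearest to and farthest from the family median. Genes named after their values were seen are Rpl28, Rpl35, Rpl41, Rpl4 and Rpl27a, the genes without overlap, and the called genes of other lists and of the 16 rows found by ID. Alternatives covered filters, scaling, weights, covariates and each library left out. A correction for coding GC content, a set of 82 genes by Ensembl ID, and summed shares and medians by spread without 3 libraries were chosen after seeing the data. Some single genes are not reported here.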

Additional observations from a re-analysis of the deposited data

Results flagged for a closer look

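Of 44 sets of values tested (10 genes and the summed share, each in 4 groups), 6 had 1 library far from the others of its group, by Dixon's ratio of the gap to the range. Chance flags about 1 in 20 groups. In control saline libraries, replicate 4 was the lowest for Rplp0 (ratio 0.688, at 6.42 log2 CPM with the next library at 8.38), Rps15 (0.686, at 4.08 with the next at 6.63) and Rpl36 (0.685, at -1.21 with the next at 2.80). The same library was the highest for Rpl22l1 (0.682, at 7.91 with the next at 6.98). Rpl5 was lowest in βKlf6KO saline replicate 2 (0.772, at 9.22 with the next at 9.53), and Rps3a1 in βKlf6KO S961 replicate 3 (0.541, at 9.26 with the next at 9.43).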

How the results depend on the processing

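After saline, 4 genes of the family were called higher. This became 0 with a filter at 5 CPM, 26 with the first component as a covariate, 11 with a GC correction of transcripts or of coding sequence, 24 with library weights, 7 with only the groups compared, 9 with quantile normalization and 8 without the 3 libraries of highest component score. After S961, 10 became 36 with the first component, 18 and 27 with the GC corrections, 5 with a length correction, 5 with median centring and 0 with only the groups compared. Leaving out 1 library gave 0 to 7 calls after saline and 0 to 18 after S961. No gene of the family was called lower in any fit. The cause of these shifts was not tested. The shares of all genes called that are given earlier belong to the fits with 4 and 10 calls. Whether calls over all genes shifted alike in the other fits is not reported here.

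The replicate numbers did not pair the libraries, with correlations of same-numbered deviations from -0.71 to 0.85 over 38 pairs. With the replicate block, 3 genes were called after saline and 8 after S961, and with the block and the GC correction 12 and 18.

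The summed share with 82 genes by ID was 1.86% and 2.45% after saline (control, βKlf6KO) and 1.77% and 2.34% after S961, and the median log2 CPM of the family 7.31, 7.71, 7.08 and 7.63. Leaving out 1 library gave means of 1.34% to 1.46%, 1.73% to 1.85%, 1.26% to 1.38% and 1.66% to 1.79% in the same order.

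Of the 66 genes, 55 were positive after saline and 58 after S961 when the first component was a covariate, and 60 and 63 with library weights. The sign changes that follow are those among the genes followed singly, none of them called. With the first component as a covariate they were, after saline, Rpl22l1 (0.12), Rpl36 (-0.18), Rplp1 (-0.056), Rplp2 (-0.12), Rps15 (-0.0042) and Rps19bp1 (-0.013), and after S961 Rpl22l1 (0.16), Rpl36 (-0.29), Rpl7l1 (-0.078), Rplp1 (-0.10), Rplp2 (-0.18) and Rps15 (-0.0045). Without the 3 libraries they were Rpl22l1 (0.098) and Rpl36 (-0.044) after saline, and Rpl22l1 (0.21), Rpl36 (-0.17), Rpl7l1 (-0.067), Rplp1 (-0.028) and Rplp2 (-0.099) after S961. With library weights they were Rpl22l1 (0.096), Rpl36 (-0.11) and Rplp2 (-0.0392) after saline, and Rpl7l1 (-0.050) and Rps27rt (-0.11) after S961. With quantile normalization they were Rpl22l1 (0.032) and Rpl7l1 (0.028) after saline, and Rpl22l1 (0.046) and Rps27rt (-0.32) after S961. With the GC correction Rpl22l1 gave 0.010 and 0.049, the same with the block added, and with coding GC 0.048 and 0.13. With the length correction Rps19bp1 gave -0.040 after saline, and Rpl39 -0.080 and Rpl7l1 -0.029 after S961, where median centring gave Rpl7l1 -0.030. Rpl38 in control libraries after S961 against saline gave 0.094 with the GC correction and 0.056 with the block added. Leaving out 1 library gave Rpl22l1 -0.17 to 0.098 and Rpl36 -0.044 to 1.14 after saline, and Rpl22l1 -0.23 to 0.048 and Rpl7l1 -0.041 to 0.064 after S961.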
